A study of Mus musculus with 6 samples.

Results

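The cells described here are liver sinusoidal endothelial cells that carried few or no transcripts of Wnt2, Rspo3 and Vwf. They came from mouse liver non-parenchymal cells, the cells of the liver other than hepatocytes, whose transcripts were counted cell by cell on a 10x Chromium droplet platform. The cells were chosen by their measured counts of the genes below, not by a label. A cell entered the gate when its unique molecular identifiers (UMIs) of Stab2, Kdr, Clec4g and Ptprb summed to 4 or more and exceeded those of the macrophage genes C1qa, C1qb and C1qc together, and when it had at most 1 UMI of Wnt2 plus Rspo3 and at most 1 of Vwf. The gate held 7181 of the 27544 cells kept, 26.1% of them. All mice were male C57BL/6J, 8 weeks old at the start, and all were fed a high-fat diet for 24 weeks to induce nonalcoholic steatohepatitis. The vehicle group received the solvent (DMSO) and the ginkgetin group received ginkgetin, which is a biflavone of plants, by gavage over the last 8 weeks at a daily dose of 10 mg/kg. Each group had 3 libraries, which were treated as the replicates. The methods give the same number per group, but the sources used here do not tie each library to a single mouse, so p-values measure the spread between these libraries.

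Sinusoidal endothelial cells line the capillaries of the liver lobule between the portal tracts and the central vein. They have open pores (fenestrae) and no continuous basement membrane, so plasma lipoproteins reach the hepatocytes through them. They clear waste from blood through scavenger receptors such as the stabilins, the mannose receptor Mrc1 and the Fc receptor Fcgr2b. Their expression is graded along the lobule. Cells near the central vein secrete Wnt2 and Rspo3, large vessels carry Vwf, and the cells between them are called midlobular or periportal. In chronic fatty liver disease these cells are known to lose fenestrae and gain features of continuous endothelium, a change called capillarization.

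Values of the 3 libraries of a group are given in the order of their replicate numbers throughout. The gate took 1011, 466 and 278 cells from the vehicle libraries and 1113, 3656 and 657 cells from the ginkgetin libraries. Their summed depth ranged from 1290956 to 12795421 UMIs per library. The median gated cell had 2764, 2386 and 7513 UMIs in the vehicle libraries and 2228, 2634 and 7158 in the ginkgetin libraries, so replicate 3 of both groups was the deeper one. Kdr was found in 86.2% to 98.3% of gated cells per library, Clec4g in 88.6% to 97.8%, Ptprb in 94.0% to 99.3% and Stab2 in 67.8% to 91.8%. These 4 genes were used by the rule and are given as a description. At the threshold, 352 gated cells had a marker sum of 4, and 494 cells that met the other conditions had a sum of 3. The rule sets an upper limit on pericentral and large-vessel genes but asks for no midlobular gene, so it does not part midlobular from periportal sinusoids. The cells are therefore called gated sinusoidal cells below.

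Ginkgetin replicate 2 stood apart from the other 5 libraries. In that library 21.8% of T cells (167 of 767, 95% Wilson interval 19.0% to 24.8%) and 25.0% of B cells (258 of 1030, 22.5% to 27.8%) carried 4 or more UMIs of the gate markers. In each of the other libraries the share was between 0% and 2.02%. B and plasma cell markers summed to 8478 counts per 1000000 UMIs (CPM) in the gated cells of ginkgetin replicate 2 and to between 39.9 and 506 CPM in the other 5 libraries. Results are therefore also given for a stricter gate, which was chosen after seeing the data and required a marker sum of 8 or more and at most 1 leukocyte UMI. It kept 896, 409 and 260 vehicle cells and 1038, 2623 and 613 ginkgetin cells, and B and plasma cell markers then summed to 566 CPM in ginkgetin replicate 2 against 16.2 to 134 CPM elsewhere. Markers of macrophages and Kupffer cells summed to 211 to 560 CPM in the vehicle libraries and to 95.8, 699 and 97.7 CPM with ginkgetin. In the stricter gate these sums were 205 to 557 CPM against 82.2 to 238 CPM. Markers of NASH-associated macrophages, a list that holds the lipid genes Fabp5 and Lpl, summed to 2062, 1635 and 1069 CPM with vehicle and to 618, 1176 and 575 CPM with ginkgetin. In the stricter gate these were 2056, 1629 and 1078 CPM against 562, 895 and 477 CPM, with no overlap between the groups. T cell markers summed to 31.6, 31.9 and 8.96 CPM with vehicle and to 82.0, 190 and 57 CPM with ginkgetin. NK cell markers summed to 32.0, 17.9 and 4.48 CPM against 80.2, 185 and 40.8 CPM. Both sums were thus higher in every ginkgetin library, and both overlapped between the groups in the stricter gate. In the rule's gate without a replicate block, edgeR called no member of the 13 marker lists for other cell types. Their part in the results below was not tested.

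The first comparison was the number of these cells. Gated cells were 16.8%, 14.0% and 6.72% of the kept cells with vehicle and 31.9%, 52.9% and 18.0% with ginkgetin. The lowest ginkgetin share lay above the highest vehicle share. The mean was 12.5% ± 5.20 with vehicle and 34.2% ± 17.5 with ginkgetin (SD, n = 3 each), and the two-sided exact permutation test gave p = 0.1, the smallest value that 3 libraries against 3 can give (adjusted p = 0.2 over the 2 share tests). Without ginkgetin replicate 2 the ginkgetin mean was 24.9% ± 9.78 (exact p = 0.2), and with the stricter gate the means were 11.2% ± 4.41 and 28.2% ± 10.6 (exact p = 0.1). With the stated limit of 250 to 5000 UMIs per cell the means were 18.2% and 31.6% (exact p = 0.4). As a share of all cells in the 3 endothelial gates, which included cells with more Wnt2 plus Rspo3 or more Vwf, gated cells made up 77.7% ± 9.34 with vehicle and 76.1% ± 17.3 with ginkgetin (exact permutation p = 1, adjusted p = 1). By library this share was 81.53%, 84.42% and 66.99% with vehicle and 85.55%, 86.64% and 56.06% with ginkgetin. It was lowest in the deeper replicate 3 of each group. The limits of 1 UMI were not scaled to depth, so pericentral and large-vessel cells of shallow libraries can remain in the gate. With cells thinned to 1000 UMIs before gating, the means were 95.5% ± 0.351 with vehicle and 94.3% ± 3.23 with ginkgetin. The shares are not independent of one another, since cells of a library sum to the whole, and fewer cells of another type cannot be told apart from more of these.

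**Figure D1:**
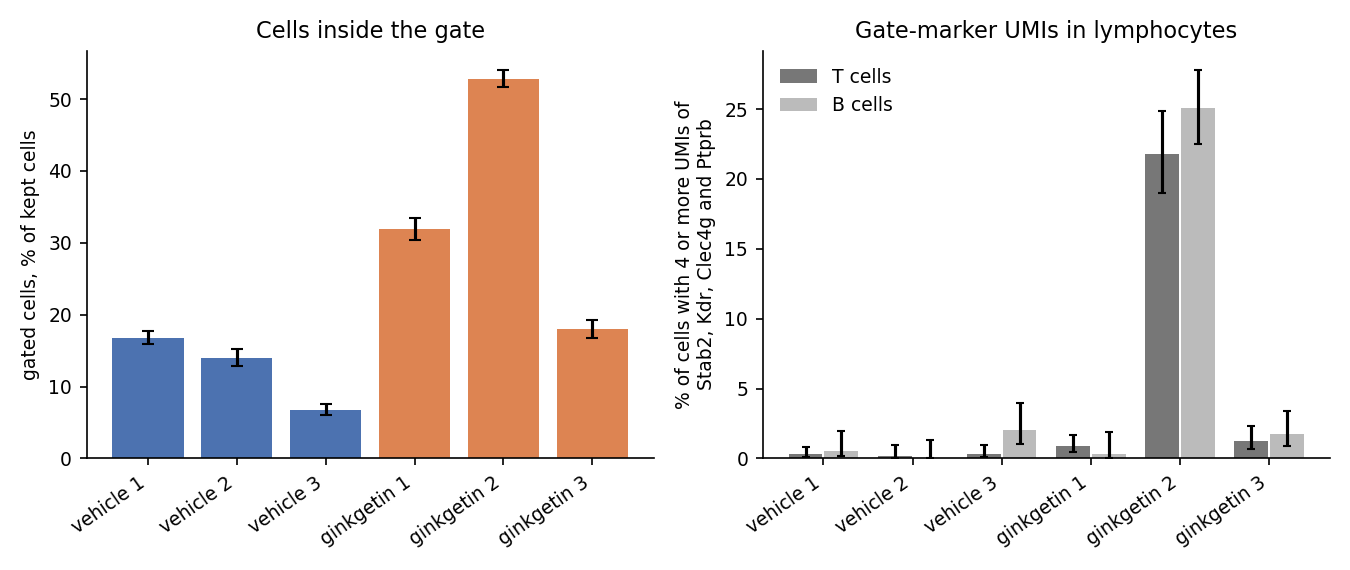
Left, the share of kept cells inside the gate (percent) in each of the 3 vehicle and 3 ginkgetin libraries, with 95% Wilson intervals that cover counting error only. Right, the share of T and B cells with 4 or more UMIs of the gate markers in each library (percent), which was 21.8% and 25.0% in ginkgetin replicate 2 and at most 2.02% elsewhere.

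Expression was compared on counts summed over the gated cells of each library, with values per gene given as CPM scaled by trimmed mean of M-values. Ginkgetin and vehicle differed by a fold over 2 at an adjusted p under 0.05 (edgeR quasi-likelihood test) for 12 of 10388 genes tested (0.116%). Of these, 11 were lower (0.106%) and 1 was higher (0.00963%) with ginkgetin. The genes that fell were Kcnj8, Abca1, Mest, Armcx4, Crem, Synpo, Ch25h, Grrp1, Angptl4, Obsl1 and Npy. Synpo, Ch25h, Grrp1, Obsl1 and Npy were outside the rule for named genes and were chosen after their values were seen. With the replicate number as a block, 90 genes passed (0.866%), 69 lower (0.664%) and 21 higher (0.202%), 2 of them genes of the rule (C1qb and C1qc). The stricter gate gave 48 of 9913 genes (0.484%), 33 lower (0.333%) and 15 higher (0.151%), and with both the block and the stricter gate 322 genes passed (3.25%), 217 lower (2.19%) and 105 higher (1.06%). All 12 genes lost the call when vehicle replicate 1, ginkgetin replicate 1 or ginkgetin replicate 2 was left out, which left 0 genes called by edgeR each time (661, 908 and 907 genes at an unadjusted p under 0.05). Over all 10388 genes, 969 had an unadjusted p under 0.05 (9.33%), DESeq2 called 191 (1.84%) and limma-voom 13 (0.125%). The list counts below are for the rule's gate without the block unless another setting is named, and can be read against these shares. Without ginkgetin replicate 2 the adjusted p of the 12 genes lay between 0.103 and 0.146 (edgeR), and each kept its direction.

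Promoter sequence is shown for 3 of the genes that fell, because each held 1 of the 3 motifs searched on both strands. The motifs were a liver X receptor-type repeat, the cyclic AMP response element (TGACGTCA) and the classical sterol regulatory element. The repeat and the sterol element are shown by the capitals in the Abca1 and Kcnj8 lines, where any bases were allowed at the GGT in the middle of the repeat. No match overlaps another motif. The sequences are the 250 bases before the start site from RefSeq on GRCm38.p6, printed from 5′ to 3′ on the minus strand, on which all 3 genes lie, with the motif in capitals. Abca1 lies at chr4:53159896-53160145, and its motif ends 52 bases before the start. The Ch25h window is chr19:34475149-34475398 with 53 bases from motif to start, and that of Kcnj8 is chr6:142571615-142571864 with 196 bases.
Abca1: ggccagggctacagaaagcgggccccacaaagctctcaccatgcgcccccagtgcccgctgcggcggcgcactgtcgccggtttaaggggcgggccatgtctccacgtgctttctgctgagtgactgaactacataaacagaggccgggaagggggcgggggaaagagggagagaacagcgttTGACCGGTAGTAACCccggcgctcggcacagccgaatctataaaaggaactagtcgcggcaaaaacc
Ch25h: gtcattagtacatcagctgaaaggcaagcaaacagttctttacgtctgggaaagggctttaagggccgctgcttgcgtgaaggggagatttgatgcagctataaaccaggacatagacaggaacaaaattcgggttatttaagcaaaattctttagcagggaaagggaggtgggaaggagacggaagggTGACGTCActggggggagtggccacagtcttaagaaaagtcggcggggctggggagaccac
Kcnj8: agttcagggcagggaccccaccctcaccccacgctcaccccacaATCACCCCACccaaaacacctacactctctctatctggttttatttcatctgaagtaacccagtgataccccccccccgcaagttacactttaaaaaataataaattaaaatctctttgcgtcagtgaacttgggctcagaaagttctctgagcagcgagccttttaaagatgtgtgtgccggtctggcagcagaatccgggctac
Of 32851 promoters from 250 bases before to 50 bases after the start, the repeat was in 6 (0.0183%), the cyclic AMP response element in 588 (1.79%) and the sterol regulatory element in 30 (0.0913%). Of the 12 called genes 8 were in the sequence table, and each motif was in 1 of those 8. The search fixed all letters of the repeat outside its middle to those shown for Abca1, so its count covers that form only. A match of letters is a description and shows no binding.

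Of the called genes, Abca1 and Angptl4 are on the list of lipid uptake and handling, and Ch25h also acts on cholesterol. Endothelial cells take up, esterify and export cholesterol and pass fatty acids to the tissue behind them. Abca1, which exports cholesterol to apolipoprotein A-I, was at 196, 157 and 256 CPM with vehicle and at 26.5, 28.5 and 39.3 CPM with ginkgetin. It fell by 2.69 ± 0.28 on the log2 scale (adjusted p = 0.0258, edgeR), a 6.45-fold lower level, and by 2.62 without ginkgetin replicate 2. Ch25h, the enzyme that makes 25-hydroxycholesterol, was at 45.7, 32.9 and 51.9 CPM with vehicle and at 3.78, 2.34 and 3.74 CPM with ginkgetin. Every ginkgetin library lay far below every vehicle library, and the gene fell by 3.78 ± 0.31 on the log2 scale (adjusted p = 0.0109, edgeR). Angptl4, a secreted inhibitor of lipoprotein lipase, was at 16.1, 10.7 and 18.5 CPM with vehicle and at 0.757, 0.607 and 0.680 CPM with ginkgetin. It fell by 4.48 ± 0.38 (log2, adjusted p = 0.0109, edgeR).

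**Figure D2:**
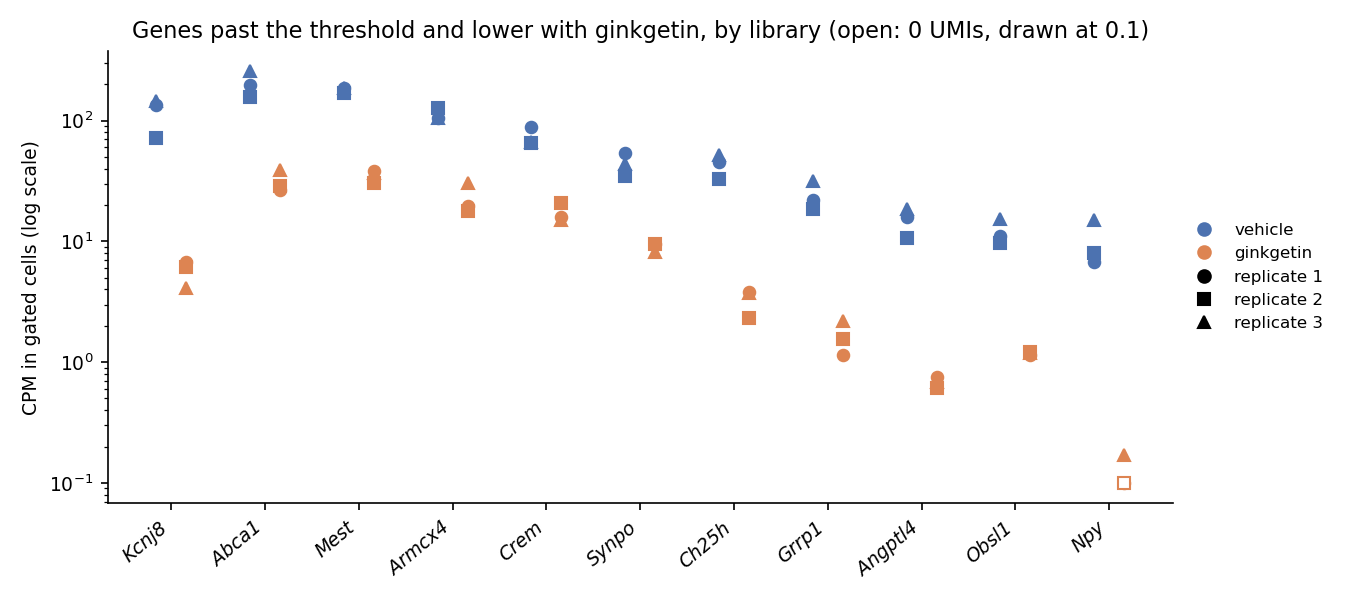
Level of each gene called lower with ginkgetin (CPM, log axis) in the 3 vehicle and the 3 ginkgetin libraries, 1 point per library. For each of the 11 genes every ginkgetin point lies below every vehicle point, as for Abca1 (26.5 to 39.3 against 157 to 256 CPM). Open symbols are Npy libraries with 0 UMIs, drawn at 0.1 CPM.

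The list of lipid uptake and handling genes had 25 members tested. Of these, 2 fell (Abca1 and Angptl4), with 8 above 0 and 17 below, and a median log2 difference of -0.62 beside 0.01 over all genes tested. In 19 of the 25 the groups did not overlap, beside 14.9% of all genes tested (6.89% without overlap and lower with ginkgetin). Fabp4, the fatty acid-binding protein of capillary endothelium and adipocytes, was at 6845, 4936 and 3453 CPM with vehicle and at 654, 573 and 427 CPM with ginkgetin, so the groups were far apart. Its log2 difference of -3.20 ± 0.43 missed the threshold (adjusted p = 0.0714, edgeR) but passed with the replicate block (adjusted p = 0.00869) and in the stricter gate (-3.04, adjusted p = 0.0329), and was -3.23 without ginkgetin replicate 2. Fabp5, a related binding protein that is also on the macrophage list, had 1688, 1369 and 727 CPM with vehicle and 386, 282 and 204 CPM with ginkgetin, and missed the threshold without the block and passed with it (log2 difference -2.12, adjusted p = 0.0184 with the replicate block, edgeR). In the stricter gate Fabp5 missed the threshold (adjusted p = 0.115, edgeR).

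Other members of the lipid list did not pass in the rule's gate without the block. Cd36, the fatty acid translocase, was at 1398, 1187 and 1292 CPM with vehicle and at 401, 312 and 871 CPM with ginkgetin, with the highest ginkgetin value in replicate 3 (log2 difference -1.29 ± 0.43, adjusted p = 0.422, edgeR). Pparg, the nuclear receptor that drives fatty acid storage genes, was at 24.3, 19.6 and 22.8 CPM with vehicle and at 4.54, 5.98 and 3.06 CPM with ginkgetin. It missed the threshold (adjusted p = 0.0714, edgeR), passed with the replicate block (adjusted p = 0.0415) and missed it in the stricter gate (adjusted p = 0.0578). Hilpda, an inhibitor of triglyceride breakdown on lipid droplets, is not on the list and was chosen after its values were seen. It was at 61.4, 57.8 and 81.3 CPM against 22.3, 18.5 and 12.2 CPM and passed both with the block (adjusted p = 0.0420) and in the stricter gate (adjusted p = 0.0269, edgeR). Of the genes of cholesterol synthesis and its control, Insig1 had a log2 difference of 2.12 ± 0.49, Hmgcs1 of 0.86 ± 0.32 and Sqle of 3.98 ± 1.02, none of them past the threshold (adjusted p = 0.231, 0.460 and 0.269, edgeR). Without ginkgetin replicate 2, which held 254 of the Sqle UMIs beside 11 and 22 in the other ginkgetin libraries, these differences were 1.49, 0.45 and 2.57. The log2 differences of Abcg1, Plin2, Gpihbp1 and Apoe were -0.62, -0.92, -0.66 and -0.67, with no overlap between groups and no call. Hepatocyte markers, which include abundant lipid carriers, summed to 259, 668 and 1042 CPM in the vehicle libraries and to 76.9, 1110 and 429 CPM in the ginkgetin libraries.

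**Figure D3:**
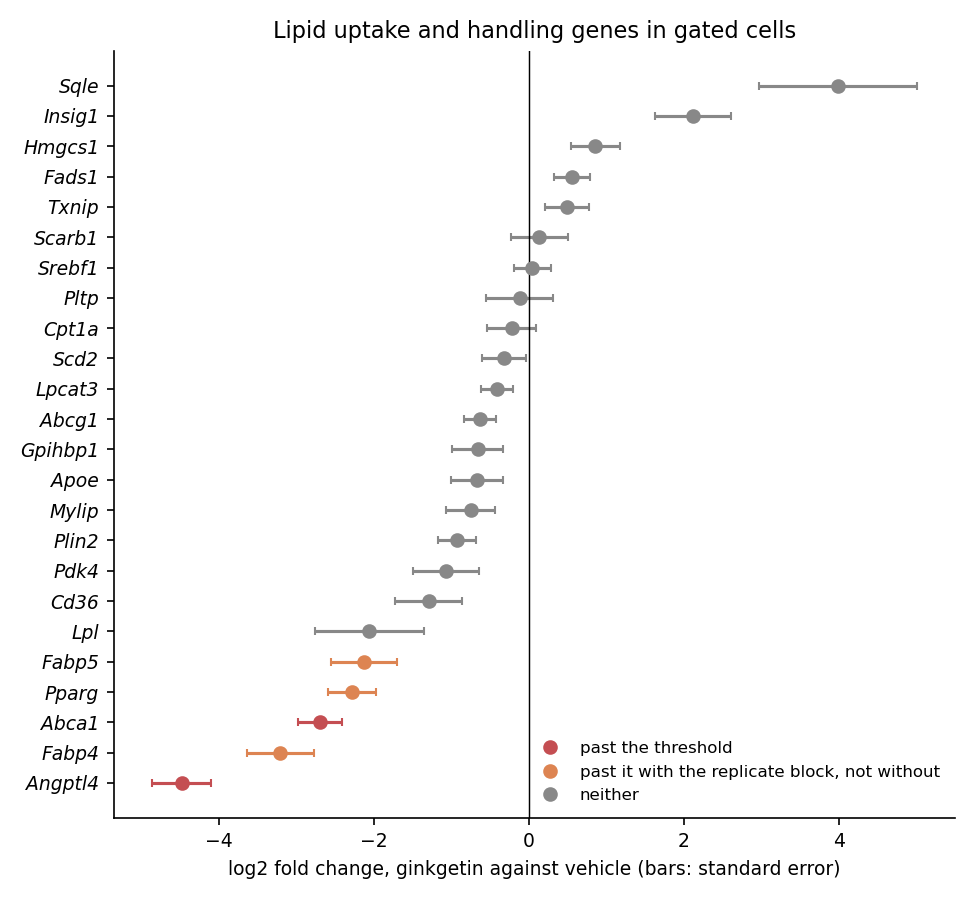
Log2 difference (ginkgetin minus vehicle) with its SE for members of the lipid list tested in the gated cells. Abca1 (-2.69) and Angptl4 (-4.48) are the called members below 0, and 17 members lie below 0.

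Kcnj8 is the pore subunit of an ATP-sensitive potassium channel, and Abcc9 is its sulfonylurea receptor subunit. Kcnj8 was at 134, 71.2 and 144 CPM with vehicle and at 6.81, 6.15 and 4.08 CPM with ginkgetin. No ginkgetin library came near the vehicle range, and the gene fell by 4.37 ± 0.36 on the log2 scale (adjusted p = 0.0109, edgeR), and by 4.46 without ginkgetin replicate 2. Abcc9 was at 118, 83.6 and 274 CPM with vehicle and at 10.2, 17.0 and 20.4 CPM with ginkgetin. Its log2 difference of -3.30 ± 0.50 missed the threshold (adjusted p = 0.0831, edgeR), passed with the replicate block (adjusted p = 0.0199) and missed it in the stricter gate (adjusted p = 0.0593). Kcne3, a regulatory potassium channel subunit, was at 87.8, 63.1 and 88.4 CPM against 7.19, 23.9 and 3.40 CPM, with the highest ginkgetin level in replicate 2. It was called in the stricter gate (-3.48, adjusted p = 0.0418, edgeR), with an adjusted p of 0.231 in the rule's gate and of 0.0947 with the replicate block.

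Mest, an imprinted gene expressed from the paternal allele, was at 186, 169 and 185 CPM with vehicle and at 38.6, 30.6 and 36.9 CPM with ginkgetin. The replicates of each group lay close together, and Mest fell by 2.35 ± 0.20 on the log2 scale (adjusted p = 0.0109, edgeR). Crem, a transcription factor of the cyclic AMP response, was at 89.2, 65.8 and 66.0 CPM against 15.9, 20.8 and 15.1 CPM, and fell by 2.09 ± 0.23 (adjusted p = 0.0287, edgeR). Armcx4 fell by 2.30 ± 0.26 (log2, adjusted p = 0.0343, edgeR), from 105 to 128 CPM in the vehicle libraries to 17.9 to 30.6 CPM. Synpo, which encodes an actin-associated protein, fell from 34.7 to 53.5 CPM to 8.16 to 9.53 CPM, a log2 difference of -2.29 that was -2.47 in the stricter gate, where it missed the threshold (adjusted p = 0.0512, edgeR). Grrp1 fell from 18.7 to 31.4 CPM to 1.13 to 2.21 CPM, and the cytoskeletal adaptor Obsl1 from 9.78 to 15.3 CPM to 1.13 to 1.21 CPM. Npy, a neuropeptide, rested on few molecules. It had 19, 9 and 38 UMIs in the vehicle libraries and 0, 0 and 1 in the ginkgetin libraries, a ratio of the depth-scaled group totals of 199 (95% counting interval 34.5 to 7990), and it was not tested in the stricter gate.

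More genes passed both with the replicate block and in the stricter gate. There were 32 of them, 23 lower and 9 higher, and 10 were among the 12 called in the rule's gate. Beyond the genes above, those lower with ginkgetin included Esm1, Lyve1, Igfbp5 and Plaur, and those higher included Tiam1, P2ry1, Gna14, Ifitm10, Tbxa2r and Klhdc8a. All but the fixed genes Lyve1, Tiam1 and P2ry1 and the listed Esm1 were chosen after their values were seen. The fixed genes and lists were themselves chosen with earlier results of these data known. Tiam1, an exchange factor that activates the GTPase Rac, was at 6.78, 13.3 and 13.7 CPM with vehicle and at 67.3, 51.0 and 47.1 CPM with ginkgetin. The groups were well apart, with a log2 difference of 2.31 ± 0.32 (adjusted p = 0.0714, and 0.0418 with the replicate block and 0.0207 in the stricter gate, edgeR). P2ry1, a receptor for ADP, was at 14.99, 17.8 and 11.4 CPM against 61.3, 45.2 and 41.3 CPM, and its log2 difference was 1.76 ± 0.26 (adjusted p = 0.0763, and 0.0305 with the block and 0.0312 in the stricter gate, edgeR). Gna14, a G protein alpha subunit of the Gq class, was at 0.357, 2.67 and 0.393 CPM with vehicle and at 25.4, 19.3 and 13.8 CPM with ginkgetin. Klhdc8a had 1 UMI in all vehicle libraries together and 195 in the ginkgetin libraries, a ratio of the depth-scaled totals of 64.6 (95% counting interval 11.4 to 2563).

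The scavenging function of sinusoidal cells was examined with 20 genes of endocytosis. None was called by edgeR in the rule's gate (5 had an unadjusted p under 0.05, DESeq2 called 2 and limma-voom 0), 11 lay above 0 and 9 below, and their median log2 difference was 0.12 beside 0.01 over all genes. Stab1, Mrc1 and Fcgr2b overlapped between the groups, with log2 differences of 0.15 ± 0.36, 0.28 ± 0.32 and 0.26 ± 0.34. Lyve1, the hyaluronan receptor, was at 665, 619 and 826 CPM with vehicle and at 212, 94.5 and 209 CPM with ginkgetin, with a log2 difference of -2.04 ± 0.38 that missed the threshold (adjusted p = 0.161, edgeR) and passed with the replicate block (adjusted p = 0.0317) and in the stricter gate (adjusted p = 0.0392). Its difference was -1.74 without ginkgetin replicate 2. Ehd3, a membrane-trafficking protein of liver sinusoids, was at 1113, 1629 and 1018 CPM against 3611, 2523 and 3002 CPM, with no overlap and no call (log2 difference 1.28 ± 0.36, adjusted p = 0.305, edgeR). The rule genes Stab2 and Kdr ranged over 542 to 583 and 1285 to 1576 CPM in the vehicle libraries and over 594 to 772 and 1507 to 2505 CPM in the ginkgetin libraries, and are given without a test.

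Genes of capillarization and continuous endothelium leaned below 0. Of 17 tested none was called by edgeR in the rule's gate (9 had an unadjusted p under 0.05, all lower, DESeq2 called 3 and limma-voom 0), 15 lay below 0, and the median log2 difference was -0.66. In 9 of the 17 the groups did not overlap, beside 14.9% of all genes tested. With the replicate block 3 passed, all lower. Plvap, the protein of fenestral diaphragms that marks continuous endothelium in the liver, was at 199, 154 and 287 CPM with vehicle and at 67.0, 74.4 and 93.2 CPM with ginkgetin, apart in every library. Its log2 difference was -1.45 ± 0.29 (adjusted p = 0.184, and 0.0339 with the replicate block and 0.145 in the stricter gate, edgeR). Cd34 overlapped between the groups (log2 difference -1.09 ± 0.44, adjusted p = 0.515, and 0.0377 with the block and 0.356 in the stricter gate, edgeR). The basement membrane genes Col4a1, Col4a2 and Sparc had log2 differences of -0.66 ± 0.34, -0.86 ± 0.25 and -0.79 ± 0.32, none called. Esm1, a proteoglycan of endothelial tip cells, was at 258, 265 and 660 CPM against 49.2, 46.2 and 54.2 CPM. It missed the threshold (log2 difference -2.98 ± 0.43, adjusted p = 0.0714, edgeR) and passed with the block (adjusted p = 0.0199) and in the stricter gate (adjusted p = 0.0423).

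Of the genes of lobular position, 8 pericentral and 12 periportal ones were tested between the groups, and edgeR called 0 of either in the rule's gate (5 and 2 at an unadjusted p under 0.05, DESeq2 3 and 1, limma-voom 1 and 0). With the replicate block Fabp4 of the pericentral and Cd34 of the periportal list passed, both lower, and in the stricter gate the pericentral Fabp4 and Selp (lower) and Gas6 (higher) passed. Their median log2 differences were -0.69 and 0.01, and the periportal Efnb1 and Efnb2 were at 0.26 ± 0.42 and -0.53 ± 0.37.

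In the vascular growth list of VEGF and angiopoietin genes, 0 of 19 were called by edgeR (2 at an unadjusted p under 0.05, DESeq2 2, limma-voom 0), and the median log2 difference was -0.03. Angpt2, the ligand that destabilizes vessels, and Vegfc, a lymphatic growth factor, missed the threshold without the replicate block and passed with it (log2 differences -1.52 ± 0.28 and -1.39 ± 0.28, adjusted p = 0.0206 and 0.0357 with the block, edgeR). Both missed it in the stricter gate (adjusted p = 0.0863 and 0.191, edgeR). Of 20 angiocrine ligands and matrix signals none was called by edgeR in the rule's gate (6 at an unadjusted p under 0.05, DESeq2 3, limma-voom 0), with a median of -0.53. Gas6, a ligand of the TAM receptors, was at 78.9, 112 and 70.3 CPM with vehicle and at 275, 203 and 218 CPM with ginkgetin, and was called in the stricter gate (adjusted p = 0.0392, against 0.161 in the rule's gate, edgeR). Bmp2 had a log2 difference of 0.43 ± 0.37. Bmp6, which signals iron load to hepatocytes, was not tested, because it was at 81.3 and 164 CPM in replicate 3 of vehicle and ginkgetin and at 0 to 3.52 CPM in all other libraries. Of 17 Notch pathway genes none was called by edgeR (5 at an unadjusted p under 0.05, DESeq2 2, limma-voom 0) and the median was -0.23, with Dll4 at -0.23 ± 0.34. The 30 endothelial transcription factors also had 0 calls by edgeR (3 at an unadjusted p under 0.05, DESeq2 and limma-voom 0). Gata4 and Maf, which set sinusoidal identity, had log2 differences of 0.38 ± 0.32 and 0.10 ± 0.35, and the flow-responsive Klf2 and Klf4 of 0.11 ± 0.40 and 0.62 ± 0.31.

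Genes of inflammatory adhesion and chemokines were mostly below 0. Of 21 tested 17 lay below 0, with a median of -0.53, and none was called by edgeR in the rule's gate (7 had an unadjusted p under 0.05, all lower, DESeq2 called 5 and limma-voom 0). The groups did not overlap in 10 of the 21, beside 14.9% of all genes. Selp, the P-selectin that tethers leukocytes and platelets, was at 46.4, 14.2 and 68.8 CPM with vehicle and at 3.40, 4.07 and 2.72 CPM with ginkgetin. It was called in the stricter gate (log2 difference -3.33, adjusted p = 0.0452, and 0.00991 there with the replicate block, edgeR) and missed the threshold in the rule's gate (adjusted p = 0.0831, and 0.0558 with the block). Cxcl9, an interferon-induced chemokine for T cells, was at 388, 388 and 839 CPM against 189, 92.9 and 213 CPM, and missed the threshold without the block and passed with it (log2 difference -1.71 ± 0.45, adjusted p = 0.0452 with the replicate block, edgeR). Cxcl10 had 290, 406 and 704 CPM against 197, 107 and 199 CPM, without a call. Vcam1 and Icam1 had log2 differences of -0.60 ± 0.26 and -0.75 ± 0.37 and were not called. Of 26 interferon-stimulated genes 0 were called by edgeR (5 at an unadjusted p under 0.05, DESeq2 and limma-voom 0), 20 lay below 0 and the median was -0.37.

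The 7 MHC class II genes moved with ginkgetin replicate 2. Their median log2 difference was 1.61 in the rule's gate and -0.43 in the stricter gate, with 0 calls by edgeR in both (1 at an unadjusted p under 0.05 in the rule's gate, DESeq2 1, limma-voom 0). Cd74, the invariant chain of class II, was at 124, 273 and 138 CPM with vehicle and at 383, 2808 and 234 CPM with ginkgetin, the highest value being that of replicate 2. H2-Aa was at 218, 128 and 53.8 CPM against 175, 969 and 76.5 CPM. The lymphocyte genes Cd3e, Lck, Lat, Gzma and Skap1 passed with the replicate block. In the stricter gate Lat and Lck did not pass (adjusted p = 0.452 for each, edgeR), and the other 3 were not tested. Of 10 class I genes 5 lay on each side of 0, with a median of 0.04 and 0 calls by edgeR (1 at an unadjusted p under 0.05, DESeq2 and limma-voom 0).

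In the list of flow, nitric oxide and vasoactive genes, 1 of 23 was called (Kcnj8) and 15 lay below 0, with a median of -0.24. Like the other lists, it was chosen with earlier results of these data known. Nos3, the endothelial nitric oxide synthase, and the endothelin receptor Ednrb had log2 differences of -0.24 ± 0.33 and -0.78 ± 0.53 and overlapped between the groups. The immediate-early and heat shock genes had 24 members tested and 0 calls by edgeR (7 at an unadjusted p under 0.05, DESeq2 4, limma-voom 0). The chaperone Hspa1b was at 794, 592 and 311 CPM with vehicle and at 148, 57.3 and 20.7 CPM with ginkgetin, with replicate 3 the lowest of each group, and passed with the replicate block (adjusted p = 0.0199, edgeR). Hspa1a and Hspb1 did likewise (adjusted p = 0.0317 and 0.0339 with the block). Hspa1b, Hspa1a and Hspb1 missed the threshold in the stricter gate (adjusted p = 0.169, 0.233 and 0.189, edgeR). These genes can respond to tissue dissociation, and their levels were taken after it in every library. Of 20 ribosomal protein genes 18 lay below 0 with a median of -0.45 and 0 calls by edgeR (0 at an unadjusted p under 0.05, DESeq2 and limma-voom 0). The median gated cell had 24.9%, 24.8% and 11.3% of its UMIs from ribosomal protein genes in the vehicle libraries and 20.7%, 21.3% and 7.88% in the ginkgetin libraries.

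The remaining lists had no call by edgeR in the rule's gate. Of 25 nuclear-encoded respiratory chain genes 19 lay below 0 (median -0.23, 0 at an unadjusted p under 0.05), and of 19 genes of glycolysis and the hypoxia response 16 did (median -0.31, 6 at an unadjusted p under 0.05). The 20 cell cycle genes had a median of 0.02 in the rule's gate and of -0.58 in the stricter gate, with 3 at an unadjusted p under 0.05. Of 15 genes of iron and heme handling 9 lay above 0 (median 0.15, 2 at an unadjusted p under 0.05), and Hmox1, which degrades heme, had a log2 difference of -0.78 ± 0.24. For these 4 lists DESeq2 and limma-voom also called 0. Of 20 vesicle and fenestra-related genes 13 lay below 0 (median -0.10, 3 at an unadjusted p under 0.05, DESeq2 3, limma-voom 0).

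The share of gated cells with a UMI of a gene was compared after thinning each cell to 1000 UMIs, which left out 3 cells of vehicle replicate 3 and 4 of ginkgetin replicate 3. With 14 genes tested, every exact permutation p of 0.1, the smallest possible, became an adjusted p of 0.233 or more. Fabp4 was found in 95.2%, 89.1% and 89.8% of gated cells in the vehicle libraries and in 27.0%, 30.3% and 33.4% in the ginkgetin libraries. The means were 91.3% ± 3.32 and 30.2% ± 3.17 (SD, n = 3 each, exact permutation p = 0.1), against 3.02% and 1.79% in T cells, which should lack the gene. Without thinning the means were 98.0% and 51.8%. Lyve1 was found in 38.5% ± 6.79 and 13.5% ± 4.77 (65.8% and 28.4% without thinning), against 0.0971% and 0.641% in T cells. Kcnj8 was found in 9.69%, 5.15% and 13.1% of vehicle cells and in 0.809%, 0.739% and 0.459% of ginkgetin cells, beside T cell means of 1.52% and 1.17%. The T cell share cannot be taken as background for Kcnj8, since without thinning it was 8.42% (39 of 463 cells) in ginkgetin replicate 3, above the 3.20% of gated (21 of 657) and 3.16% of pericentral cells (13 of 412) there, whose median depth was greater. Without thinning its means were 27.3% and 2.20%. Tiam1 was found in 1.41% ± 0.623 of vehicle cells and in 5.85% ± 0.550 of ginkgetin cells, beside T cell means of 1.02% and 0.608%. The T cell share cannot be taken as background for Tiam1 either. Without thinning it was 6.82% (54 of 792 cells) in vehicle replicate 3. That was above the 1.10% (1 of 91) of cells with 2 or more Vwf UMIs there, whose median depth was greater. P2ry1 was found in 0.985% ± 0.520 and 5.36% ± 0.985, against 0% and 0.273% in T cells. Fcgr2b was found in 73.7% ± 2.82 and 78.7% ± 10.5 (exact permutation p = 0.5), against 0.887% and 4.07% in T cells. The median depth behind these shares was 2228 to 7513 UMIs in gated cells and 2624 to 5953 UMIs in the T cells.

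Position in the lobule was examined by setting the gated cells beside 1224 cells of the same libraries that had 2 or more UMIs of Wnt2 plus Rspo3 (pericentral gate). Because these gates were drawn on the same cells, the differences describe the rule's outcome and test nothing. Of 9375 genes 285 differed by the same criteria (3.04%), 203 higher (2.17%) and 82 lower (0.875%) in gated cells. The pericentral list had 9 genes tested, of which 8 were lower in gated cells (median log2 difference -1.77 beside 0.01 over all genes). The transcription factor Lhx6 had a log2 difference of -4.04 ± 0.26, the cadherin Cdh13 of -2.39 ± 0.14, the calcitonin-family coreceptor Ramp3 of -2.72, and the stem cell factor receptor Kit of -1.77 ± 0.15. The periportal list had 12 genes tested, of which 8 were higher in gated cells and 1 (Ecm1) lower, with a median of 1.31. The Notch ligands Dll4 and Jag1 were higher by 1.29 and 1.59, the ephrins Efnb1 and Efnb2 by 1.22 and 1.59, the scavenger receptor Msr1 by 1.70, and Adgrg6, an adhesion G protein-coupled receptor, by 3.70. Of the other scavenger receptors, Stab1 had a log2 difference of -0.37, and the differences were -0.07 for Fcgr2b, -0.10 for Mrc1 and 0.19 for Lyve1. Slpi and C3, higher by 4.13 and 4.25 in the rule's gate, were higher by 0.29 and 1.12 when the stricter gate was used.

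**Figure D4:**
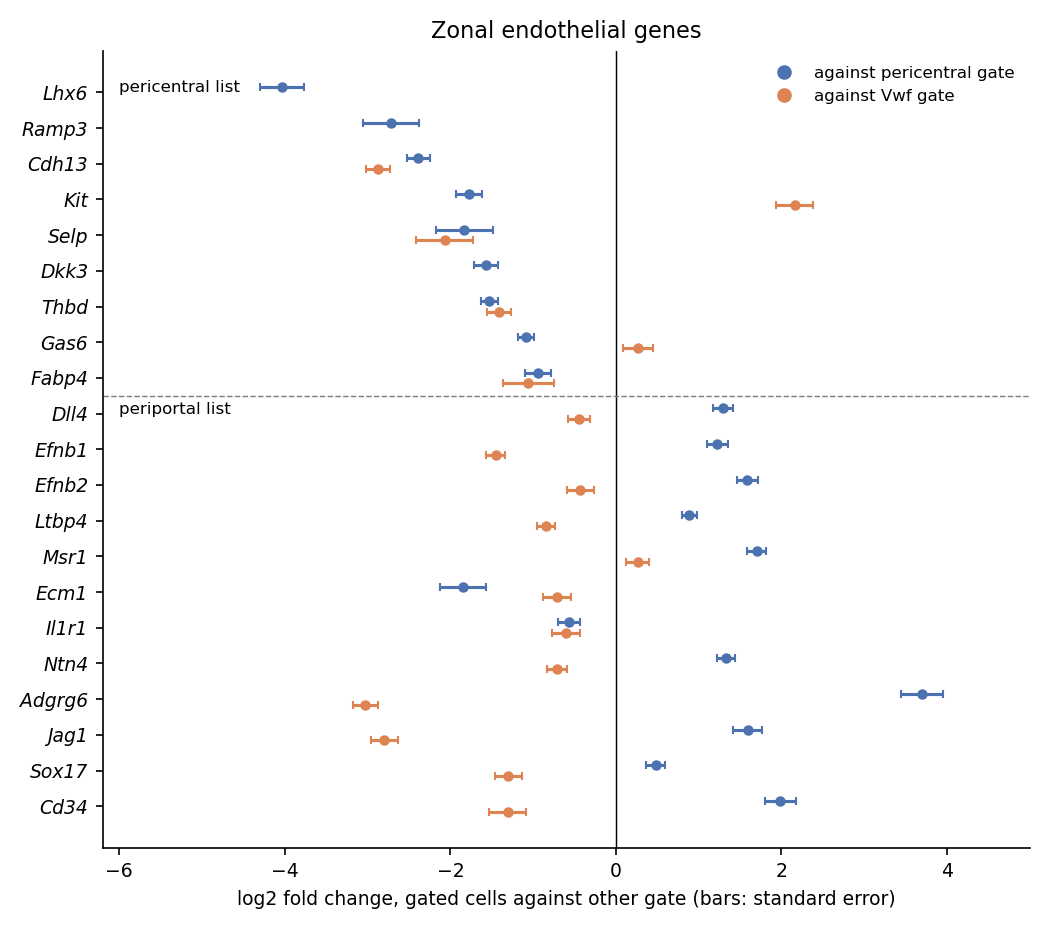
Log2 difference of the gated cells against the pericentral gate and against the Vwf gate (x axis, points in separate colours, bars are SE) for each member of the pericentral list (upper part) and the periportal list (lower part), with rule genes left out. Kit lay at -1.77 against the pericentral gate and at 2.16 against the Vwf gate, and Adgrg6 at 3.70 and -3.03.

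The 495 cells with 2 or more Vwf UMIs (Vwf gate) were the other neighbour. Of 8484 genes 548 differed (6.46%), 275 higher (3.24%) and 273 lower (3.22%) in gated cells. Sinusoidal genes were higher in gated cells, with log2 differences of 2.002 ± 0.17 for Fcgr2b, 1.76 for Lyve1, 1.57 for Mrc1, 1.29 for Ehd3 and 0.90 for Stab1. The extracellular matrix genes Spon1, Col8a1 and Fbln5 had differences of -5.68, -5.51 and -5.02. Of the 12 periportal genes 5 were lower in gated cells (Adgrg6, Jag1, Efnb1, Sox17 and Cd34) and none was higher, with a median of -0.78 beside 0.00 over all genes. Of 6 pericentral genes tested, Kit was higher by 2.16 and 4 were lower, among them Cdh13 (-2.88) and Thbd (-1.41). Adgrg6 and Jag1 thus had their lowest level in the pericentral gate, an intermediate level in the gated cells and their highest in the Vwf gate, while Kit was highest in the pericentral gate and lowest in the Vwf gate.

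The last comparison asked whether the difference between ginkgetin and vehicle was the same in gated and in pericentral cells, with the library as a block. The difference of the 2 effects passed at an adjusted p under 0.05 for 57 of 10212 genes (0.558%). Of these, 24 also passed in the stricter gate, 31 did not, and 2 were not tested there. The difference was positive for 47 and negative for 10. Among the positive ones were genes with their highest gated level in ginkgetin replicate 2, the library with gate-marker UMIs in lymphocytes, such as H2-Eb1 at 930 CPM, Cd74 at 2877, Cd79b at 96.7 and Alb at 468, against at most 196, 387, 12.2 and 217 CPM in the gated cells of the other 5 libraries. H2-Eb1, Cd74 and Alb also passed in the stricter gate and Cd79b did not, and these 4 were picked after their values were seen. Among endothelial genes, also picked so, Selp was at 47.0, 14.4 and 70.9 CPM with vehicle and at 3.44, 4.17 and 2.84 CPM with ginkgetin in gated cells, and at 116, 54.5 and 76.1 CPM against 20.8, 28.9 and 38.3 CPM in pericentral cells. The groups did not overlap in either gate, and the log2 effect in gated minus pericentral cells was -2.34 (adjusted p = 0.00243, and 2.7e-05 in the stricter gate, edgeR). Cd36 was at 1415, 1199 and 1331 CPM against 405, 320 and 908 CPM in gated cells, and at 1065, 1009 and 1239 CPM against 185, 196 and 389 CPM in pericentral cells. Here the lower level with ginkgetin was the more marked in pericentral cells, by 0.74 on the log2 scale (adjusted p = 0.0441, and 2.0e-08 in the stricter gate, edgeR). For Ctla2a, a protease inhibitor, the lower level with ginkgetin was the more marked in gated cells (difference of -0.89, adjusted p = 0.0162, edgeR). Cldn5, a tight junction protein, was at 515, 586 and 566 CPM with vehicle and 763, 600 and 763 CPM with ginkgetin in gated cells, and at 296, 382 and 417 CPM against 788, 831 and 920 CPM in pericentral cells. It was higher with ginkgetin in both gates and less so in gated cells (difference of -0.90, adjusted p = 0.00879, edgeR). The vasoconstrictor peptide gene Edn1 was at 48.4, 49.4 and 35.6 CPM against 6.88, 34.7 and 9.8 CPM in gated cells. In pericentral cells it was at 24.2, 47.7 and 52.2 CPM against 0, 6.85 and 0.96 CPM. Its lower level with ginkgetin was less marked in gated cells (difference of 2.64, adjusted p = 0.0129, edgeR), where replicate 2 had the highest ginkgetin value.

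For Kcnj8 the effect in gated minus pericentral cells was -2.94 (adjusted p = 0.0165, edgeR). This rested on few pericentral cells, in which Kcnj8 was at 16.1, 13.6 and 104 CPM with vehicle and at 0, 37.3 and 6.99 CPM with ginkgetin, overlapping between the groups with the highest ginkgetin value in replicate 2. In the stricter gate the difference did not pass (-1.54, adjusted p = 0.172, edgeR), and that of Abcc9 changed from -1.80 (adjusted p = 0.0146) to -0.45 (adjusted p = 0.771). For Abca1, Mest and Ch25h no difference between the gates was detected at this depth, with values of 0.48, -0.44 and 0.02 (adjusted p = 0.666, 0.702 and 1, edgeR).

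**Figure D5:**
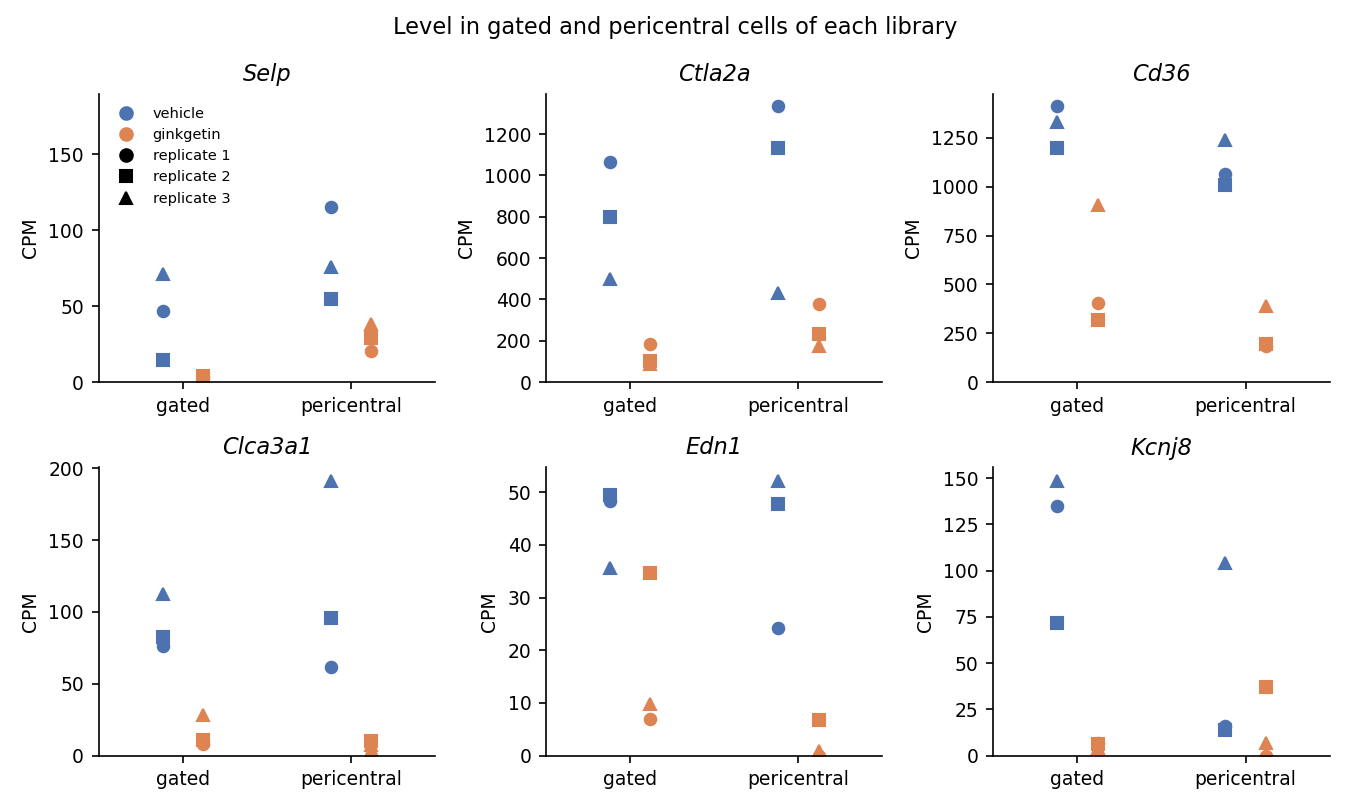
Levels (CPM, linear axes from 0, 1 panel per gene) of Selp, Ctla2a, Cd36, Clca3a1, Edn1 and Kcnj8 in the gated and the pericentral cells of each library, with vehicle and ginkgetin in separate colours and a marker shape for each replicate number. Selp was lower in every ginkgetin library than in any vehicle library in both gates, with gated ginkgetin libraries between 2.84 and 4.17 CPM and pericentral ginkgetin libraries between 20.8 and 38.3 CPM.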

How the data were processed

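The authors deposited 6 tables of raw, unnormalized UMI counts, with genes in rows and cell barcodes in columns. Per the submitters' processing notes the build was GRCm38/mm10, and the aligner is not given in the sources used here. The stated filter of 250 to 5000 was read as genes detected per cell, with under 5% mitochondrial UMIs, which kept 27544 of 33168 barcodes. Replicates 3 came with other gene symbols, so 306 symbol pairs were joined through RefSeq synonyms, 16456 genes were used and 2587 symbols left out (0.5% to 2.58% of UMIs per library). Libraries held 13128697 to 61796882 UMIs, pairs of libraries shared 0 to 85 cell barcodes, and no doublets were removed.

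The gate was applied per cell and counts were summed per library. Sums of the 2 groups were compared by the quasi-likelihood test of edgeR 4.0.16 (R 4.3.3) after TMM scaling and filterByExpr, with no covariate and Benjamini-Hochberg adjustment over all genes, and called at adjusted p under 0.05 and a fold over 2. Gates were compared with the library as a block. DESeq2 1.42.0 and limma-voom (limma 3.58.1) were alternatives. Shares were compared with two-sided exact permutation tests (scipy 1.17.1). The libraries were paired by replicate number in a block as an alternative, since deviations of same-numbered libraries correlated by 0.297, 0.198 and 0.694. Vehicle 2 with ginkgetin 1 (0.335) and vehicle 1 with ginkgetin 2 (0.269) correlated about as much, so only replicate 3 stood apart by number. The labels state no shared batch. Wilson intervals and counting intervals cover counting error only.

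The members and lists were chosen with earlier results of these data known. Named genes were a fixed list, up to 8 called genes with the largest rise and fall at a group mean of 50 CPM or more that did not overlap, and up to 4 called members of each list. Between gates, genes were drawn from the 6 largest called differences each way and the zonation lists, not all of which are given. Others were chosen after their values were seen. Results for some genes are not reported here. The main edgeR fit was tested on simulated counts and the permutation test on known values. The other steps were not tested in this way.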

Additional observations from a re-analysis of the deposited data

Results flagged for a closer look

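The effect of group was tested for a difference between gated and pericentral cells, and 57 genes passed (edgeR, library as block). For Selp the log2 effect in gated minus pericentral cells was -2.34. For Kcnj8 it was -2.94, with 0 to 37.3 CPM in the pericentral ginkgetin libraries, and it did not pass in the stricter gate. For Cd36 it was 0.74, so the lower level with ginkgetin was less marked in gated than in pericentral cells.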

How the results depend on the processing

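The 12 genes called between the groups became 191 with DESeq2, 24 without a gene filter, 90 with the replicate block, 91 with the library set as a block, 39 with 250 to 5000 UMIs per cell, 28 at a marker sum of 8, 19 after thinning, 48 in the stricter gate and 322 there with the replicate block. It was 8 in replicates 1 and 2 only (5 of the 12 among them), 9 without a cell filter, 11 without the 5% of cells with most UMIs, 12 with RLE, 13 with limma-voom (10 of the 12) and 15 without leukocyte UMIs. Each of the 12 also passed with the replicate block in the rule's gate. Leaving out 1 library gave 0 to 11. The 285 genes against the pericentral gate became 878 without a gene filter, 83 after thinning and 132 in the stricter gate (170 to 364 with 1 library left out). The 548 genes against the Vwf gate became 987 without a filter and 246 after thinning. The 57 genes whose effect differed between gates became 13 after thinning and 95 in the stricter gate (22 to 85 with 1 library left out, the lowest without vehicle replicate 3). The difference in the share of endothelial cells, -1.57 percentage points, was 3.12 in replicates 1 and 2 and 0.45 with the UMI limit, and -6.89 to 8.45 with 1 library left out. The cause of these changes was not tested. Among single genes, none of them called, signs turned for Maf (-0.0264), Efnb1 (-0.0130) and Kit (0.10) in replicates 1 and 2 only. Kit was also 0.20 with the UMI limit, 0.12 without a cell filter, 0.12 at a marker sum of 8, 0.14 without leukocyte UMIs, 0.0284 without the 5% of cells with most UMIs, 0.17 in the stricter gate and 0.0449 there with the replicate block. Nos3 was 0.00493 with the UMI limit, 0.0922 after thinning and 0.0481 in the stricter gate with the block. Without thinning, the difference in share turned to -0.70 for Fcgr2b and -3.67 for Dll4. With 1 library left out, log2 differences ranged from -0.11 to 0.43 for Stab1, -0.0200 to 0.32 for Maf, -0.0604 to 0.38 for Klf2, -0.49 to 0.0835 for Dll4, -0.28 to 0.53 for Efnb1, -0.63 to 0.29 for Kit and -0.45 to 0.17 for Nos3, and share differences from -2.06 to 9.38 for Efnb1, -6.62 to 1.34 for Efnb2, -3.23 to 5.10 for Dll4 and -2.62 to 0.68 for Kit. In all, 1327 values of named genes kept direction and side of the threshold, 183 passed it newly, 76 lost it and 37 turned. The median log2 difference of all genes moved between -0.01 and 0.09. Ginkgetin effects on genes at or below a few CPM, and rare transcripts in the pericentral cells, were limited by depth.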
